A study of Homo sapiens with 6 samples.

Results

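The heterogeneous nuclear ribonucleoprotein (hnRNP) genes HNRNPA1, HNRNPA2B1, HNRNPC, HNRNPD, HNRNPF, HNRNPH1, HNRNPK, HNRNPL, HNRNPM and HNRNPU were chosen by gene symbol, and all 10 were found among the 37192 genes whose counted transcripts could be matched to GENCODE. Each was represented by 1 transcription unit (TU). They were measured in untreated K562 cells, a human chronic myelogenous leukemia cell line, by 4 total RNA-seq libraries made after rRNA depletion and by 2 PRO-seq libraries, which map engaged RNA polymerase by sequencing nascent RNA. All libraries came from 1 source of cells, so p-values measure only the spread between these libraries, which may be technical. There was no treated or mutant group, and the comparison is between the assays within the same cells.

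HnRNP proteins coat nascent pre-mRNA in the nucleus and influence splice site choice, polyadenylation, export and decay. Most hold RNA recognition motifs, while HNRNPK uses KH domains and HNRNPU binds both RNA and scaffold-attached DNA. Several of these genes regulate their own transcripts through alternative exons that lead to decay. The steady-state level of an RNA depends on its synthesis and its decay, so at steady state the RNA-seq level divided by the PRO-seq level serves as a relative half-life, which has no time unit. PRO-seq density reflects the number of engaged polymerases, which depends on elongation rate as well as on initiation, and elongation rate was not measured here.

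HNRNPK, HNRNPC, HNRNPM, HNRNPF, HNRNPL and HNRNPH1 had relative half-lives above that of the median mRNA, by between 1.78-fold and 4.68-fold. HNRNPA2B1, HNRNPU and HNRNPD lay below it, at 0.728, 0.621 and 0.347 of the median. HNRNPA1, which ranked 2 of 10 by RNA-seq level, had no PRO-seq count in either library and therefore no half-life. The order of the genes in nascent transcription was not their order in steady-state RNA. The sign of HNRNPU depended on the length by which its counts were divided, as described with its values below. The counted TUs of HNRNPA2B1 and HNRNPH1 differ from the representative transcripts of these genes, so their values are uncertain too.

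Sequences are shown first for the 5 genes whose RefSeq start site lies at or just upstream of the start of the counted TU, so that the bases shown lie outside the counted TU. For HNRNPK, HNRNPL and HNRNPH1 this is not the MANE start, that of the transcript chosen as representative by RefSeq and Ensembl, which lies 389, 2361 and 11113 bp further downstream. Polymerase from starts inside the TU is counted too. The MANE start of HNRNPH1 has GGGCGG upstream, whereas the start shown has none of the motifs. Each run holds the 120 bases upstream of the start, 5′ to 3′ on the strand of the gene, from RefSeq on GRCh38.p14. Capitals mark matches on either strand to any of the 7 motifs counted in the next paragraph. The runs lie at chr9:83980616-83980735 for HNRNPK, chr19:38852348-38852467 for HNRNPL, chr5:179634785-179634904 for HNRNPH1, chr1:244864544-244864663 for HNRNPU and chr4:82373992-82374111 for HNRNPD, all on the minus strand.
HNRNPK: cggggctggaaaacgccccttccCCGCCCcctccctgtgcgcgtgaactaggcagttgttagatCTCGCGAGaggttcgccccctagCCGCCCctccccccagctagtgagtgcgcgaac
HNRNPL: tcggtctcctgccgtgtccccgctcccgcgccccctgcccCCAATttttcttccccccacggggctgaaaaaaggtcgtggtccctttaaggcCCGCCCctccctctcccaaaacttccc
HNRNPH1: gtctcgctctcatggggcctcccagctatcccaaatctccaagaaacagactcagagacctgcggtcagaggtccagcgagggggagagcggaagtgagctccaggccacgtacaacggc
HNRNPU: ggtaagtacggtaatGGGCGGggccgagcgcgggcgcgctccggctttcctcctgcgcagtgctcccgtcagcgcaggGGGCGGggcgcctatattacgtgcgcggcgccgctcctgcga
HNRNPD: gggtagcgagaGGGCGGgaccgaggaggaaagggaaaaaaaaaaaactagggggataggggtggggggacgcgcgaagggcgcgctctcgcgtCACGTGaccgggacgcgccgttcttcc

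The first 3 genes lay above the median mRNA in half-life and the last pair below it. RefSeq entries were found for 9 members, with 15 start sites, and HNRNPA1 was not among them. Over the 250 bases upstream of each start, GGGCGG on either strand was found at 9 of the 15 starts (7 genes), against 42.6% of all 35116 promoters in the table. CCAAT was found at 8 of 15 (6 genes), against 32% of all promoters. TATAAA was found at 2 starts, of HNRNPC and HNRNPD, against 10.7%, and CACGTG at 2, of HNRNPD and HNRNPM, against 6.34%. CCGGAAG was found at 2, of HNRNPD and HNRNPF, against 8.52%. The palindrome CTCGCGAG was found at 1 start, of HNRNPK, against 0.874%, and AAGATGGC at 0, against 1.36%. The median GC content was 65.6% at member starts and 58% at all promoters, with a median of 24 and 11 CpG. A match describes the letters in the window and is not a site of binding. GGGCGG was present both in genes above the median mRNA (HNRNPK) and in genes below it (HNRNPU, HNRNPD).

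Levels were expressed as TPM, counts scaled by TU length and by the library's total, with exon length for RNA-seq and span minus 1000 bp for PRO-seq. In RNA-seq, all 10 members lay above the median of the 8733 mRNAs tested, which was 31.2 TPM. Their median was 462 TPM and their range 55.5 TPM to 1014 TPM, an 18.3-fold span. In PRO-seq, 9 of 10 lay above the mRNA median of 47.5 TPM, and these 9 spanned 8.76-fold, from 130 TPM to 1138 TPM. The members together took 0.909% to 0.932% of all counts on analysed TUs in RNA-seq, and 0.382% and 0.392% in PRO-seq. HNRNPA1 held 54499 of the members' 263841 RNA-seq counts and 0 PRO-seq counts, so these shares do not cover the same genes. Within each assay, the libraries of each member did not overlap those of the next member in order of level, so the order among members was larger than the spread between libraries. The largest RNA-seq SD was 8.52% of its mean, for HNRNPD.

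**Figure D1:**
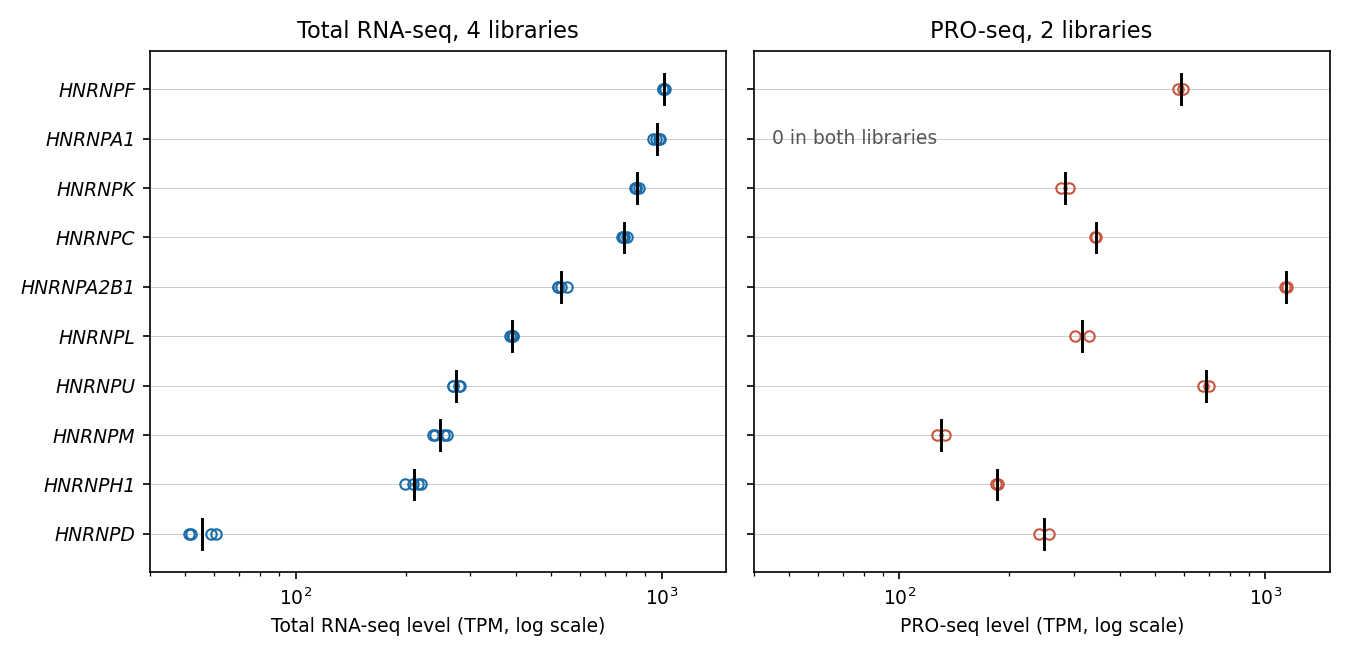
Levels of the 10 hnRNP genes in each library (TPM, log scale), with RNA-seq on the left and PRO-seq on the right. Circles are libraries and black bars their mean, and the genes are ordered by RNA-seq level. HNRNPA2B1 is ranked 5 of 10 in RNA-seq and 1 in PRO-seq, and HNRNPA1 has 0 PRO-seq counts.

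Relative half-life was tested in the 9929 TUs that exceeded 10 TPM of nascent and 1 TPM of steady-state RNA, with edgeR's quasi-likelihood test, and is given as log2 against the median mRNA ± SE. Of the members, 9 passed these thresholds. At an adjusted p under 0.05 (Benjamini-Hochberg over all TUs tested), 6 of the 9 were above and 3 below the median mRNA. The same test called 45.4% of mRNAs above and 44.9% below, and 40.4% of all TUs above and 50.0% below, so a call in some direction was common. The members' median was 0.94, against 0.00 for mRNAs and -0.23 for all TUs. Tested against a 2-fold difference with edgeR's glmTreat, 4 members were above (HNRNPK, HNRNPC, HNRNPM and HNRNPF) and 1 below (HNRNPD). This test called 24.3% of mRNAs above and 23.2% below. HNRNPL, HNRNPH1, HNRNPA2B1 and HNRNPU were not called beyond 2-fold. The 9 half-lives spanned 13.5-fold.

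**Figure D2:**
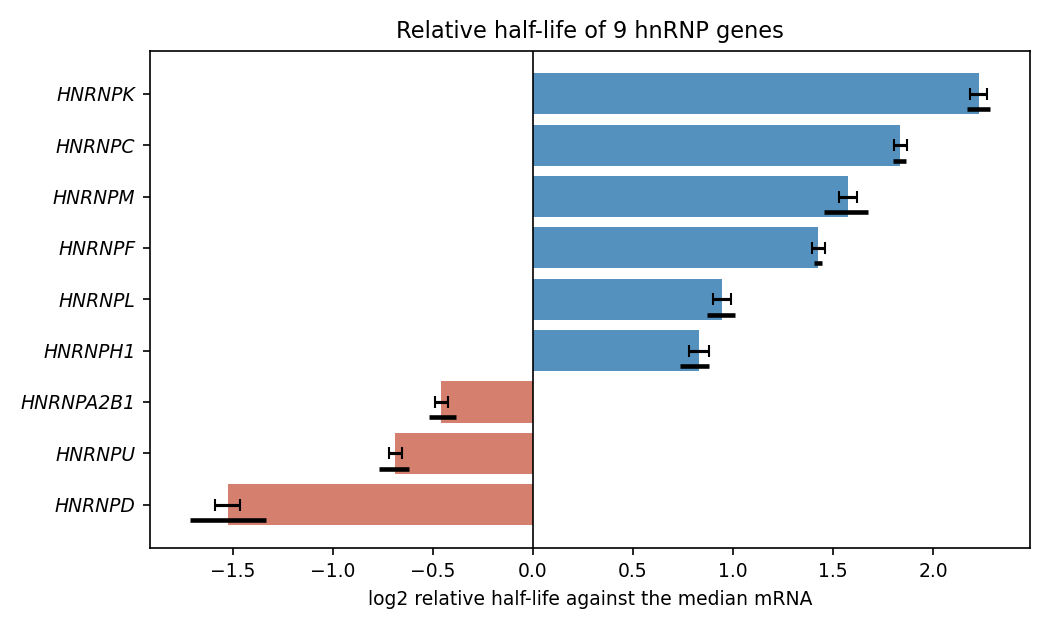
Relative half-life of the 9 hnRNP genes tested (log2 against the median mRNA). Bars are the edgeR estimates with SE, and the thick line under each bar end gives the range when a single library of each assay is paired, over all 8 pairings. HNRNPK is highest at 2.23 and HNRNPD lowest at -1.53.

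HNRNPK, a KH-domain protein that binds C-rich RNA and single-stranded DNA, had the highest relative half-life. Its RNA-seq levels were 846, 853, 854 and 867 TPM in replicates 1 to 4, and its PRO-seq levels were 291 and 277 TPM. It ranked 3 of 10 in RNA-seq and 6 in PRO-seq. Its log2 half-life was 2.23 ± 0.04 (edgeR's quasi-likelihood test, Benjamini-Hochberg adjusted p = 1.3e-29), higher than 91.3% of mRNAs tested, and the 8 combinations of 1 library from each assay gave 2.17 to 2.28. The counted TU has 17 exons over 12522 bp at chr9:83968083-83980604 (GRCh38, minus strand). Of its span past the excluded ends, 22.1% lies opposite HNRNPK-AS1, an antisense TU with at most 10 counts in any library.

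HNRNPC, which binds uridine tracts as a tetramer and stays in the nucleus, was next. Its levels were 785, 803, 787 and 781 TPM in RNA-seq and 343 and 345 TPM in PRO-seq. The log2 half-life was 1.83 ± 0.03 (edgeR, adjusted p = 6.1e-30), with the 8 combinations between 1.80 and 1.86. Its counted TU spans 60359 bp in 7 exons, the longest span among the members. Without division by length the value was 0.87.

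HNRNPM, a splicing regulator that binds GU-rich RNA, had lower levels in both assays and a half-life close to that of HNRNPF. Its levels were 241, 255, 238 and 260 TPM in RNA-seq and 133 and 127 TPM in PRO-seq, the lowest PRO-seq level above 0 among the members. The log2 half-life was 1.57 ± 0.05 (edgeR, adjusted p = 3.6e-24). Without division by length it was 0.70.

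HNRNPF and HNRNPH1 are closely related proteins that bind G-runs through quasi-RNA recognition motifs. HNRNPF had the highest RNA-seq level of the 10, with 1014, 1010, 1012 and 1019 TPM, and PRO-seq levels of 578 and 596 TPM. Its log2 half-life was 1.43 ± 0.03 (edgeR, adjusted p = 4.4e-27). HNRNPH1 had 210, 220, 199 and 216 TPM in RNA-seq and 183 and 187 TPM in PRO-seq, well below HNRNPF in both assays. Its log2 half-life was 0.83 ± 0.05 (edgeR, adjusted p = 3.2e-16). The difference of HNRNPH1 minus HNRNPF was -0.60 on the log2 scale, and their ranges over the 8 combinations did not overlap. The counted TU of HNRNPH1 begins 11113 bp upstream of the start of the MANE transcript, and its PRO-seq level is averaged over that longer stretch. With every TU given the exon length of its gene's longest coding transcript, 3667 rather than 2550 bases here, HNRNPH1 was at 0.47. That setting also raised the mRNAs tested by a median of 0.159.

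HNRNPL, which binds CA repeats, had levels of 392, 391, 386 and 392 TPM in RNA-seq and 302 and 330 TPM in PRO-seq. Its log2 half-life was 0.94 ± 0.04 (edgeR, adjusted p = 4e-19). It and HNRNPH1 were the only neighbours in the order of half-lives whose ranges over the 8 combinations overlapped, at 0.87 to 1.01 and 0.73 to 0.88. The transcript counted for HNRNPL is annotated as a target of nonsense-mediated decay, begins 2361 bp upstream of the MANE start and holds 85.4% of the MANE exon bases. A further TU on the same strand covers 18.6% of its PRO-seq window and holds 374 and 387 PRO-seq counts and 0 RNA-seq counts. When only bases outside other same-strand TUs were taken as length, HNRNPL was at 1.14. Of its exonic windows of 75 bases, the RNA-seq read length, 31.6% also occur in other counted TUs, so its RNA-seq level is uncertain.

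HNRNPA2B1, an RNA-binding protein of the A/B type with roles in splicing and RNA transport, had the highest PRO-seq level of the members. Its levels were 1147 and 1129 TPM in PRO-seq, higher than 99.6% of mRNAs tested, and 521, 553, 522 and 531 TPM in RNA-seq. The log2 half-life was -0.46 ± 0.03 (edgeR, adjusted p = 1.7e-14), with the 8 combinations between -0.52 and -0.38. The counted TU runs 16870 bp beyond the MANE transcript's end and holds only 33.5% of its exon bases, and 48.0% of the PRO-seq window lies opposite NFE2L3. NFE2L3 had 226 and 188 PRO-seq counts against 8077 and 8107 for HNRNPA2B1. The part of the long 3′ extension in the level was not tested.

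HNRNPU, also called scaffold attachment factor A, ranked 2 of 10 in PRO-seq, with 702 and 675 TPM. Its RNA-seq levels were 269, 280, 269 and 282 TPM. The log2 half-life was -0.69 ± 0.03 (edgeR, adjusted p = 6.4e-19). This sign depended on the length by which the counts were divided. The counted transcript is annotated as a retained intron, has 13084 exon bases with a single exon of 7900, and runs 9610 bp beyond the MANE end. In an alternative, every TU was divided by the exon bases of its gene's longest coding transcript, 7674 for HNRNPU. HNRNPU was then at 0.24 (edgeR, adjusted p = 4.8e-08), above the median mRNA. That setting also raised the mRNAs tested by a median of 0.159, so not all of the move comes from the length of HNRNPU. Without any length for any TU, HNRNPU was at 1.71. Counts on another transcript of HNRNPU were not analysed here. COX20, on the opposite strand, overlaps 14.8% of its PRO-seq window.

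HNRNPD, also known as AUF1, binds AU-rich elements and takes part in mRNA decay. It had the lowest RNA-seq level of the 10, with 60.5, 51.8, 58.7 and 51.2 TPM, while its PRO-seq levels were 257 and 240 TPM, above those of HNRNPH1 and HNRNPM. The log2 half-life was -1.53 ± 0.06 (edgeR, adjusted p = 1.5e-20), lower than that of every other member tested, and the 8 combinations gave -1.71 to -1.33. Of the mRNAs tested, 16.9% lay lower. Its counted transcript is the MANE transcript itself, with 3068 exon bases, and no counted TU overlaps it. HNRNPD stayed below the median mRNA under every alternative run, between -1.59 and -0.87.

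**Figure D3:**
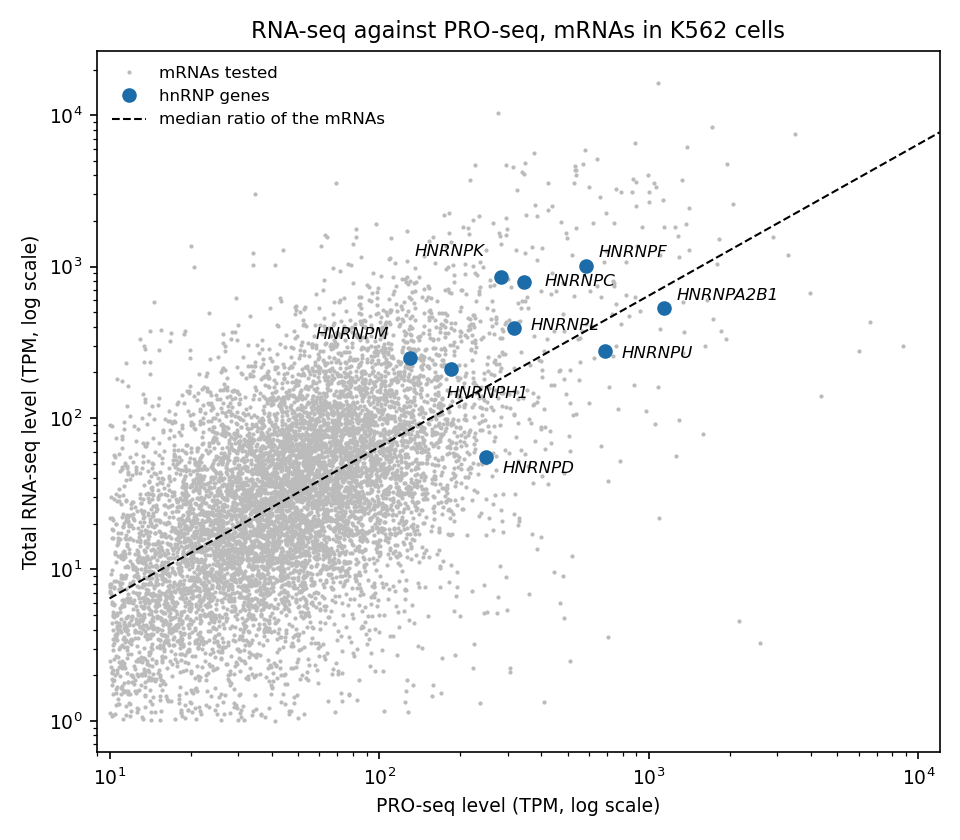
RNA-seq against PRO-seq level (TPM, log scales, counts summed over replicates) for the 8733 mRNAs tested (grey) and the 9 hnRNP genes tested (blue). The dashed line is the median ratio of the mRNAs. HNRNPK, HNRNPC, HNRNPM, HNRNPF, HNRNPL and HNRNPH1 lie above the line and HNRNPA2B1, HNRNPU and HNRNPD below it.

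HNRNPA1, an A/B-type splicing repressor and one of the most abundant hnRNP proteins, could be read in 1 assay only. Its RNA-seq levels were 948, 992, 966 and 982 TPM, higher than 98.5% of mRNAs tested, from 54499 counts in all. Its PRO-seq counts were 0 and 0. A count of 0 allows up to 3 counts over both libraries, or 0.975 TPM, by counting error alone. The whole of its PRO-seq window lies inside another counted TU on the same strand, ENSG00000258344, which held 742 and 728 PRO-seq counts and at most 1 RNA-seq count. Among 1739 mRNAs above 100 TPM in RNA-seq, 23 had no PRO-seq count. Of the 17 whose window lay wholly inside other same-strand TUs, 16 had none. Of the 1524 with no same-strand overlap and not wholly inside an opposite-strand TU, 2 had none, and of the 60 wholly inside an opposite-strand TU alone, 0 had none. The PRO-seq value of HNRNPA1 is therefore given as a count of 0 and not as a level of transcription. Of its exonic windows of 75 bases, 24.5% also occur in other counted TUs, among them HNRNPA1L2 and HNRNPA1L3.

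The transcripts differed in structure. HNRNPL (6.66 junctions per kb of exon), HNRNPM (6.23), HNRNPH1 (5.49) and HNRNPK (5.46) lay above the mRNA median of 3.08, and all 4 had half-lives above the median mRNA. HNRNPF (1.12) and HNRNPC (1.82) had fewer junctions and also lay above in half-life. The 3 genes below the median mRNA had 1.15 (HNRNPU), 2.61 (HNRNPD) and 2.86 (HNRNPA2B1) junctions per kb. Exon length divides both the junctions and the RNA-seq counts of the half-life, so the 2 measures are not independent. A relation between them was not tested. Exonic GC content was under the mRNA median of 48.6% in 8 of 10 members, the exceptions being HNRNPL (50.9%) and HNRNPM (54.9%). Total intron length was under the mRNA median of 25872 bp in 8 of 10, the exceptions being HNRNPC (57058 bp) and HNRNPM (41780 bp). None of the counted transcripts held the AU-rich nonamer TTATTTATT, found in 8.81% of mRNAs tested. The pentamer ATTTA occurred in all 10 members and in 78% of mRNAs tested. Per kb of transcript it ranged from 0.389 in HNRNPM to 1.96 in HNRNPH1 and 2.37 in HNRNPU, beside a median of 0.98 in mRNAs. The Pumilio-type motif TGTANATA occurred once each in HNRNPA1, HNRNPC, HNRNPD and HNRNPU, and in 29.9% of mRNAs. The HNRNPU match lies at bases 12794 to 12801 of 13084, in a transcript that runs 9610 bp beyond the MANE end. The ATTTA and junction densities of HNRNPU come from that same retained-intron transcript. The motif values are counts over whole counted transcripts on the sense strand, with 10 genes, and no relation with half-life was tested.

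The wider family was placed beside the members without a test between the lists. Of 30 other hnRNP family genes, 24 were tested, with 7 above, 15 below and 2 not called, and a median of -0.49. The direction of this list was not stable, since its median was 0.83 without division by length (14 above, 10 below) and 0.29 with TPM thresholds dropped (15 above, 10 below). The highest were HNRNPH2 (2.63 ± 0.13), CIRBP (2.46 ± 0.06) and PTBP3 (0.78 ± 0.04). The lowest were TARDBP (-4.38 ± 0.15) and MATR3 (-4.31 ± 0.10), with RNA-seq levels of only 2.05 and 2.19 TPM. The TARDBP value comes from a decay-target transcript with 34.5% of the MANE exon bases. A second TARDBP TU, with 100% of them and 29.3 TPM in RNA-seq, was not tested, at 2.59 TPM in PRO-seq. The counted TUs of TARDBP and MATR3 that could be tested share 70.1% and 82.6% of their PRO-seq window with other same-strand TUs, and that of HNRNPH2 shares 62.6%, so these values are uncertain. The value of CIRBP is uncertain as well, since its counted transcript holds 37.5% of the MANE exon bases.

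Paralogs that share the name of a member differed from it by more than the spread of the 8 combinations in each of the pairs compared. HNRNPA3 (-1.38) and HNRNPA0 (-1.89) lay below HNRNPA2B1. HNRNPDL (-0.69) and HNRNPAB (0.27) lay above HNRNPD. HNRNPH2 lay above HNRNPH1 and HNRNPH3 (0.28) below it. HNRNPLL (-0.56) lay below HNRNPL by 1.51, the only pair of the L type, and on the other side of the median mRNA. HNRNPUL1 (0.17) lay above HNRNPU (-0.69) in the fit as reported. HNRNPU was at 0.24 with the longest coding exon length, but HNRNPUL1 was not read in that fit, so the pair was not compared there. HNRNPR, at 0.05, was not called (edgeR, adjusted p = 0.17), and HNRNPUL2 was not tested, with 1 PRO-seq count in all and 99.5% of its window shared.

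Among SR splicing factors, which often act against hnRNP proteins at exons, 4 of 12 tested lay above and 8 below, with a median of -0.37. They ranged from SRSF5 (3.73 ± 0.07), SRSF9 (1.54 ± 0.07) and SRSF11 (0.97 ± 0.05) down to SRSF8 (-0.90 ± 0.11), SRSF10 (-1.18 ± 0.05) and SRSF2 (-1.31 ± 0.05). SRSF5 had 234 and 296 PRO-seq counts at 23.0 TPM, while SRSF9 had 425 and 402 at 224 TPM. The PRO-seq counts of SRSF5 were thus divided by a much longer length, so its value is uncertain. The counted transcript of SRSF10 holds 45.5% of the MANE exon bases, so its value is uncertain as well. SRSF1, like HNRNPA1, had no PRO-seq count and a window wholly inside another same-strand TU. Among snRNP and core spliceosome genes, 28 of 35 lay above and 7 below, with a median of 1.58, led by SNRPD2 (4.28 ± 0.06), SNRPC (3.72 ± 0.06) and SNRPB (3.24 ± 0.06). The lowest were LSM8 (-1.42 ± 0.07), SF3A1 (-1.50 ± 0.07) and SF3B4 (-1.65 ± 0.14). SNRPB shares 31.6% of its PRO-seq window with other same-strand TUs. The medians of the lists and their order depended on division by length. Without it they were 1.09 for the members, 1.58 for SR factors (9 above, 2 below) and 1.51 for snRNP genes. With TPM thresholds dropped, the SR median was 0.13. Median RNA-seq levels were 391 TPM for the members tested, 86.3 TPM for the other family genes, 179 TPM for SR factors and 153 TPM for snRNP genes.

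Other choices of length and threshold moved some members more than the libraries did. With TPM thresholds dropped, the median mRNA itself shifted by 0.66 on the log2 scale, and HNRNPA2B1 was at 0.20 and HNRNPU at -0.03. HNRNPK, HNRNPC, HNRNPM, HNRNPF, HNRNPL, HNRNPH1 and HNRNPD kept their sign under every alternative run. No alternative took the span of the MANE transcript as the PRO-seq length, so the sign of HNRNPH1 under that length was not tested.

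**Figure D4:**
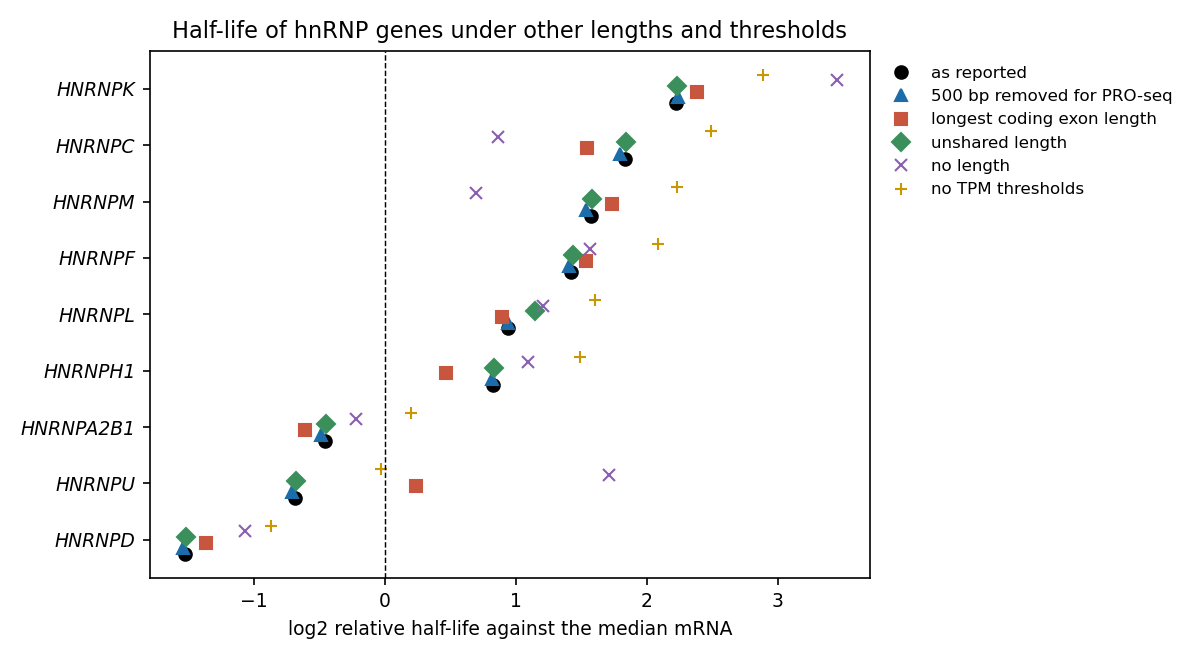
Relative half-life of the 9 hnRNP genes (log2 against the median mRNA) as reported and under 5 alternatives for length and threshold, with 1 symbol for each. HNRNPU moves from -0.69 to 0.24 with the longest coding exon length and to 1.71 without length, and HNRNPA2B1 crosses 0 without TPM thresholds.

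Counts on TUs ranged from 5732780 to 9002746 per RNA-seq library and were 6993816 and 7245632 in PRO-seq, so sampling error was small for the members, each with at least 842 PRO-seq counts per library except HNRNPA1. RNA-seq replicates 1 and 3 were closer to each other than to replicates 2 and 4, and the reverse, with a chi-square per degree of freedom of 1.13 and 1.12 within these pairs and 1.75 to 2.13 across them. Libraries within a pair still differed beyond sampling noise and were counted as 4, but they may not be 4 independent preparations. With the close pairs summed, adjusted p-values of the members were larger, at 2.9e-22 rather than 1.3e-29 for HNRNPK (edgeR). In 6 of 10 members, replicates 1 and 3 did not overlap replicates 2 and 4, with HNRNPD higher and HNRNPA1, HNRNPA2B1, HNRNPH1, HNRNPM and HNRNPU lower in replicates 1 and 3, against 48.3% of mRNAs in either direction. All 13 K562 markers examined were above 1 TPM in RNA-seq (10.8 to 6287 TPM). Of 5 markers of other cell types, EPCAM was at 120 TPM, counted on a decay-target transcript, and CD3E, MS4A1, ALB and COL1A1 were under 1 TPM.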

How the data were processed

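K562 cells grown in the same flask gave 4 total RNA-seq and 2 PRO-seq libraries, which were grouped by assay from the sample titles. The authors deposited raw counts per transcript, made by trimming with Cutadapt, alignment with HISAT2 to GRCh38 and counting with HTSeq on GENCODE, for PRO-seq without the first and last 500 bp of each TU. No version of these tools, GENCODE release, strand setting or HTSeq mode was found in the methods or labels, so antisense and overlapping TUs are uncertain. Rows naming no TU (66.5% to 68.6% of records in RNA-seq, 86.5% and 88.6% in PRO-seq) were left out of totals.

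Of 42371 transcripts listed, 88.1% were matched by identifier to GENCODE lifted to GRCh37, which gave lengths and classes. GRCh38 positions are those the annotation records for each original. TPM used exon length for RNA-seq and span minus 1000 bp for PRO-seq. The 9929 TUs that exceeded 10 TPM of nascent and 1 TPM of steady-state RNA were tested with edgeR 4.0.16 (R 4.3.3), with the quasi-likelihood F-test, TMM factors, length offsets, centring on the median mRNA and Benjamini-Hochberg adjustment. DESeq2 1.42.0 was an alternative. Other steps used Python 3.11.15. Tested on simulated data for the same comparison of assays and 9929 TUs, the fit recovered 94.5% of 200 TUs given a log2 difference of 1, with 8 false calls. All other simulated TUs had the ratio of the median mRNA, whereas most TUs in the data were called. Errors in length were not simulated, so the number of false calls does not carry over to the data. The floor given for HNRNPA1 covers counting error only, since without molecular identifiers a read cannot be equated with a molecule. The SE values also include the spread between libraries.

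The members, lists and tests were chosen with earlier results of these data known. Named were all 10 members, the 3 highest and 3 lowest TUs tested of each other list with HNRNPA0, HNRNPA3, HNRNPAB, HNRNPDL, HNRNPH2, HNRNPH3, HNRNPLL, HNRNPR, HNRNPUL1 and HNRNPUL2 as paralogs by name (1 of these TUs is not reported here), the 3 HNRNP pseudogenes with most RNA-seq counts, and the 3 mRNAs nearest to the highest and lowest member in log2 TPM. Lengths from the longest coding transcript and from unshared bases were alternatives added after seeing the data.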

Additional observations from a re-analysis of the deposited data

How the results depend on the processing

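Counts of members above and below the median mRNA were 6 and 3 as reported, and with each library left out in turn. DESeq2, library totals, thresholds of 20 and 2 TPM, 500 bp removed, the close RNA-seq pairs summed and unshared length gave the same 6 and 3. Against a 2-fold difference, 1 member was below, 2 other family genes were above, and 2 SR factors were above and 2 below. With at least 1 summed count, 7 members were above and 1 below, 15 other family genes were above, 7 SR factors were above and 4 below, and the medians were 1.60 for members, 0.29 for other family genes, 0.13 for SR factors and 2.19 for snRNP genes, with HNRNPA2B1 at 0.20 (edgeR, adjusted p = 1e-07). In that setting the added low TUs shifted the centre by 0.66. Centred on all TUs, the medians were 1.17, -0.26, -0.14 and 1.81. With the longest coding exon length for every TU, other family genes were at -0.36, SR factors at -0.21 and HNRNPU at 0.24. In that setting 7 members were above and 2 below, and the mRNAs tested rose by a median of 0.159. Without length, the median of members was 1.09, of other family genes 0.83 (14 above) and of SR factors 1.58 (9 above, 2 below), 4 snRNP genes were below, and HNRNPU was at 1.71, again with 7 members above and 2 below. With unshared length the members' median was 1.14. Leaving out a library gave medians of 0.89 to 0.99 for members and -0.64 to -0.46 for other family genes. With the replicate block the counts stayed 6 and 3. Same-numbered libraries did not deviate together (correlation -0.01), so the numbers name libraries only. The fewest PRO-seq counts of a member tested were 842 in a library, so depth limited none of them. The main limits are the length used for division, on which the sign of HNRNPU depends, same-strand TUs over HNRNPA1 and HNRNPL, and cells from 1 source. A further limit is the choice of counted transcript. That of HNRNPA2B1 holds 33.5% of the MANE exon bases, and that of HNRNPH1 begins 11113 bp upstream of the MANE start.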

Other observations

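The mRNAs whose levels over the 6 libraries lay nearest to those of HNRNPK, by Euclidean distance in log2 TPM among 8643 mRNAs outside the lists, were STMN1 (0.263), DDX21 (0.381) and YBX1 (0.443), with log2 half-lives of 2.31, 2.15 and 2.18. Those nearest to HNRNPD were NUFIP2 (0.223), LAMTOR1 (0.245) and LRRC41 (0.301), at -1.53, -1.50 and -1.60.

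Of 44 pseudogene TUs named after hnRNP genes, 27 had an RNA-seq count and 12 a PRO-seq count. Their RNA-seq counts summed to 1628, which is 0.617% of the 263841 on the members. HNRNPLP2 held 577 RNA-seq counts and 3 PRO-seq counts, HNRNPKP4 held 571 and 0, and HNRNPKP2 held 175 and 0. HNRNPKP2 and HNRNPKP4 share windows of 75 bases with HNRNPK, whose shared portion was 2.84% of its windows. HNRNPA2B1, HNRNPC, HNRNPD, HNRNPF, HNRNPM and HNRNPU shared none with any other counted TU.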
